A study of Mus musculus with 8 samples.

Results

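Medullary thymic epithelial cells with low surface CD80 (CD80low mTECs) from mice lacking Hipk2 in thymic epithelial cells were compared with the same subset from wild-type controls. The comparison used the 2 arrays labelled Hipk2 ko mTEC CD80low and the 2 labelled Hipk2 wt mTEC CD80low, 4 of the 8 arrays in the series. It ran across 14752 genes, those named by the probe annotation whose signal exceeded background on each array of 1 group or more. The other 4 arrays hold CD80high mTECs of both genotypes, again with 2 arrays each. The knockout is described as specific to thymic epithelial cells (TECs), and the controls as wild-type animals of the mating. The promoter driving recombination, the deleted exons, the age of the mice and any pooling of animals are not given in the sources used here. Nothing given here says whether the controls carried the recombinase. Its effect and that of Hipk2 loss therefore cannot be told apart for any gene named below. Samples of a group are labelled biological replicates, and the groups share the replicate numbers 1 and 2.

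Medullary TECs present proteins of many peripheral tissues to developing thymocytes. Cells with low CD80 include precursors, chemokine-producing junctional cells and cells past the Aire stage that take on features of peripheral cell types. Among these are thymic tuft cells, which carry the taste-signalling and lipid-mediator genes of gut tuft cells, and muscle-like and keratinised cells. CD80high mTECs are the mature subset that holds most Aire, the regulator of tissue-restricted genes. Hipk2 encodes a homeodomain-interacting nuclear kinase that phosphorylates transcription factors and co-regulators, among them p53.

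Levels below are log2 intensities after background correction and quantile normalisation, and a difference is knockout minus control on that scale. Between 46.4% and 50.9% of the 46089 probes lay above background on each of the 8 arrays. The subset labels were checked against known markers. Aire measured 8.03 and 8.40 in knockout and 8.08 and 8.41 in control CD80low cells, against 12.8 and 12.9 in knockout and 12.8 and 12.7 in control CD80high cells. Cd80 itself measured 5.24 and 5.82 in knockout and 5.10 and 5.69 in control CD80low cells. Of the epithelial markers, Krt14 lay between 14.2 and 14.8 and Krt8 between 13.3 and 13.6 on the CD80low arrays. Epcam was near background, above it on 1 of 2 knockout and 1 of 2 control arrays.

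The CD80low arrays also differed by replicate number. The 21 tested thymocyte genes averaged 9.18 in knockout replicate 1 and 7.42 in knockout replicate 2, and 9.10 in control replicate 1 and 7.40 in control replicate 2. Replicate 1 was above replicate 2 for 20 of these genes in knockout and for all 21 in control cells. Their median difference between genotypes was 0.02, so thymocyte RNA differed between the numbers and hardly between the genotypes. Each shift is therefore also given within number 1 and within number 2. A principal component that carried 5.86% of the variance separated the replicate numbers of the CD80low arrays. The next, with 3.17%, separated the genotypes of the CD80low arrays, at -21.9 and -9.80 for knockout and 19.9 and 12.5 for control. On the CD80high arrays it overlapped, at -10.6 and 3.23 for knockout and -2.34 and 8.93 for control.

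Hipk2 was read by 4 named probes, of which 2 lay above background. The brighter one measured 7.19 and 7.12 in knockout cells and 7.03 and 7.52 in control cells, and the groups overlapped. The other measured 5.79 and 6.26 in knockout cells and 6.62 and 6.46 in control cells, a difference of -0.51 with both knockout arrays below both controls (limma, unadjusted p = 0.0358, adjusted p = 0.694 over all tested probes). Where these probes lie relative to the deleted part of the gene is not given, so they check neither the label nor its failure. The related kinase gene Hipk3 measured 7.14 and 7.15 in knockout cells against 6.72 and 7.21 in controls, and Hipk1 measured 5.12 and 6.22 against 4.96 and 5.80. Both overlapped between genotypes. Hipk4 did not pass the background filter.

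Slc13a2, the sodium-coupled transporter of citrate and succinate known from kidney tubules and small intestine, rose in knockout cells and was the only gene to pass the adjusted threshold. Its level was 10.84 and 11.49 on the knockout arrays and 6.01 and 5.84 on the control arrays. The deposited intensities were 1914 and 2926 in knockout and 130 and 124 in control cells. Both knockout arrays were far above both controls, in number 1 by 4.83 and in number 2 by 5.65. The fitted difference was 5.24 ± 0.231 (SE, n = 2 arrays each), a 37.7-fold higher level (limma, adjusted p = 6.67e-06). With the 4 CD80low arrays fitted alone, the adjusted p in limma was 0.0105. This was 1 of 14752 genes, or 0.00678%. The count was 4 without knockout replicate 1, 9 without knockout replicate 2 and 24 without control replicate 2, with Slc13a2 among them each time. Slc13a2 also rose in knockout CD80high cells, where it measured 13.47 and 13.55 against 7.03 and 7.06 in controls (difference 6.46, limma, adjusted p = 8.0e-07). In both subsets an effect of the recombinase or its construct and one of Hipk2 loss cannot be told apart for this gene. Its difference was smaller in CD80low than in CD80high cells by an interaction estimate of -1.23 ± 0.327 (SE), which did not pass the threshold over all genes (limma, unadjusted p = 0.00363, adjusted p = 1.00).

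The other 12 tested genes of a renal tubule list, mostly proximal but with members of later segments such as Slc12a1, did not pass the threshold. The list of 13 tested genes had a median of 0.05, with the next 2 members by p being Slc12a1 at 0.21 and Slc17a3 at 0.13. The promoter of Slc13a2 is shown because this is the gene on which the adjusted call rests. It comes from the RefSeq table of assembly GRCm38.p6 and runs from 250 bases before to 50 bases after the gene's start, at chr11:78422185-78422484 (minus strand).

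Slc13a2: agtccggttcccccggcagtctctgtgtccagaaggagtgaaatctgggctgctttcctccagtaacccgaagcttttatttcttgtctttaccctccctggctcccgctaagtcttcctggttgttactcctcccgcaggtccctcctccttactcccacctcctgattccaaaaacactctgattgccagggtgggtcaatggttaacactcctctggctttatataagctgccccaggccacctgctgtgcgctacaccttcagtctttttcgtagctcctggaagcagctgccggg

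Below that single call, 997 genes (6.76%) had an unadjusted p under 0.05 in limma, against the 737.6 that this threshold gives by chance among 14752. Of these, 651 (4.41%) were lower and 346 (2.35%) higher in knockout cells. Arrays of the 2 genotypes did not overlap for 644 of the 651 (98.9%) and 343 of the 346 (99.1%). For a gene named below by its p or its gap, lack of overlap is therefore nearly fixed by the choice and is no further support. The arrays of the 2 genotypes did not overlap for 2335 genes with a lower level (15.8%) and 2227 with a higher level (15.1%). Differences of at least 2-fold with no overlap were found for 88 genes that were lower and 13 that were higher. A difference of the same sign in both replicate numbers was found for 26.8% of genes that were lower and 27.7% that were higher, and 45.5% had opposite signs. With 2 arrays a side an exact permutation test cannot give a p below 0.333, so the values rest on the spread pooled across genes. The spread of each gene is also shared with the CD80high arrays, whose replicates varied less, so p values for CD80low cells may be too small. In the same limma fit 1.59% of genes had an unadjusted p under 0.05 in CD80high cells. The excess over 737.6 is therefore not calibrated.

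Of the 20 genes with the smallest p, 19 were lower in knockout cells. Clic6, which encodes a chloride intracellular channel protein, measured 7.65 and 7.62 in knockout cells and 9.18 and 9.04 in controls. Mag, the myelin-associated glycoprotein, measured 6.31 and 6.44 against 8.13 and 7.78 in controls. In each case both knockout arrays lay more than 1 log2 unit below both controls, and the differences were -1.47 and -1.58 (limma, adjusted p = 0.0616 for both).

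Hamp2, a paralogue of the iron hormone hepcidin, had the largest difference of the 19. It measured 7.24 and 7.15 in knockout cells and 9.48 and 8.77 in controls, a difference of -1.93 ± 0.258 (SE; limma, adjusted p = 0.0616). Krt79, a keratin of skin appendages, measured 5.75 and 5.63 in knockout cells and 6.94 and 7.17 in controls. Neurl, a ubiquitin ligase gene of the Notch ligand pathway, measured 8.99 and 9.32 against 10.67 and 10.49 in controls. The membrane tetraspanin gene Tspan8 had 7.12 and 6.77 in knockout cells and 8.56 and 8.23 in controls. None of these overlapped between genotypes and all were lower in both numbers, which their choice by p had nearly fixed. The second probe of Neurl differed by -0.49.

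Fezf1, a zinc finger transcription factor gene of olfactory and forebrain development, measured 6.28 and 6.36 in knockout cells and 8.31 and 7.57 in controls. Srpx2, a secreted sushi-repeat protein gene, measured 6.86 and 7.43 against 8.78 and 8.69, and all 3 of its probes were lower. Tmem45b, a transmembrane protein gene, measured 8.00 and 8.36 in knockout cells against 10.23 and 9.43. Their differences were -1.62, -1.59 and -1.65, each with both knockout arrays below both controls (limma, adjusted p = 0.105 for each). Sh2d7, D530004J12Rik, Art5, Cbln4, Gm4952 and Gsg1l completed the genes among the 20 that are not on the tuft list used here, with differences of -1.48, -1.39, -1.35, -1.36, -1.31 and -1.24. Gsg1l was not above background on either knockout array and was at least 1.67-fold lower in knockout cells by the probe used. Its second probe, not above background on any CD80low array, differed by -0.03.

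**Figure D1:**
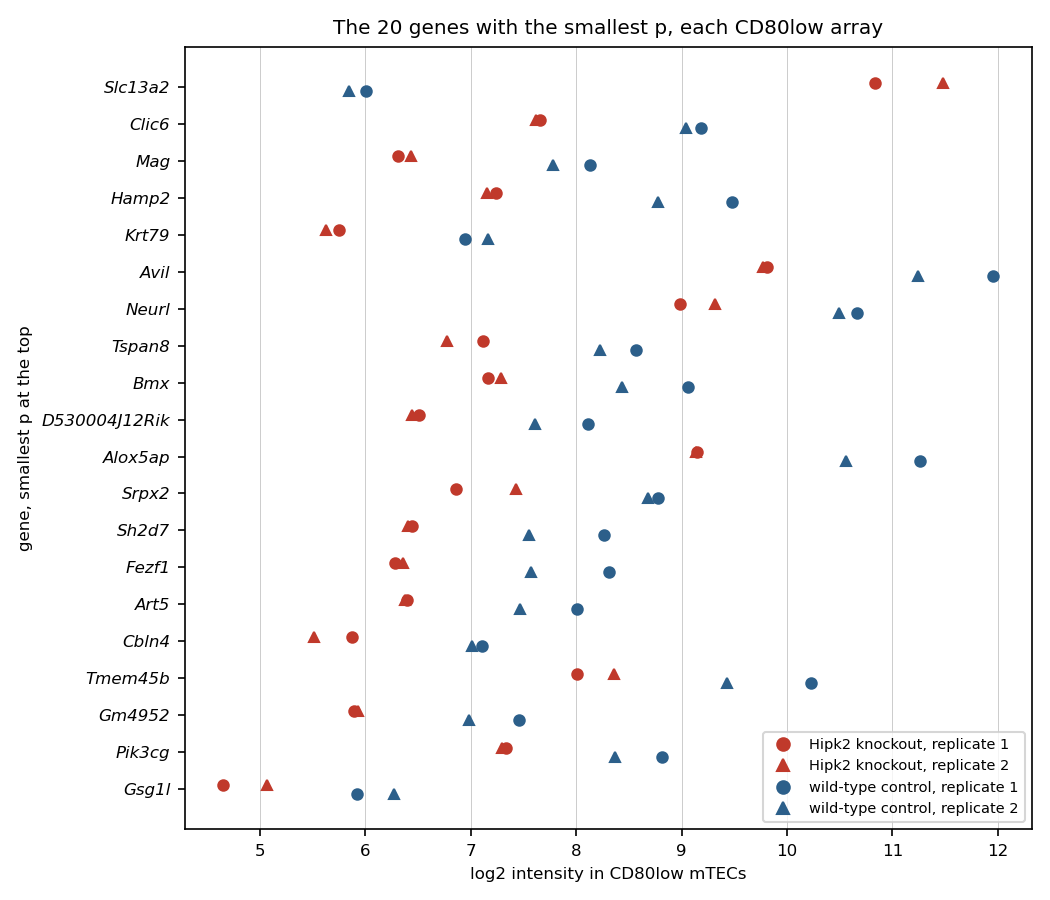
Log2 intensity of the 20 genes with the smallest p on the 4 CD80low arrays, knockout in red and control in blue, circles for replicate 1 and triangles for replicate 2. Slc13a2 is far higher on both knockout arrays, and the other 19 genes are lower on both, which the choice by p nearly fixes.

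Thymic tuft genes were lower in knockout CD80low cells as a list, although no member passed the adjusted threshold in this fit, which has no replicate block. Of 40 listed genes 38 had a named probe and 33 were tested, and 32 of the 33 had a lower mean in knockout cells, as did 48.3% of all genes. Their median difference was -0.98, against 0.01 over all 14752 genes. This list and the others below were chosen with earlier results of these data known. Their shares beside all genes are descriptions and not tests. The arrays did not overlap with a lower level for 26 of the 33, and 23 had an unadjusted p under 0.05 with a lower level, beside 15.8% and 4.41% of all genes. The list's mean level was 8.03 and 8.02 in knockout cells and 9.25 and 8.72 in controls. In these bulk arrays fewer cells of a type and less RNA per cell cannot be told apart.

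The tuft difference held within both numbers and was larger in number 1. The median was -1.24 in number 1, where 31 of 33 genes were lower, and -0.77 in number 2, where 30 were lower. Replicate 1 was above replicate 2 for 19 of the 33 genes in knockout cells, with a median gap of 0.04, and for 29 of the 33 in control cells, with a median gap of 0.60. Thymocyte RNA was also higher in replicate 1, in both genotypes, and its part in the tuft levels of the controls was not tested. Vav1, a guanine nucleotide exchange factor gene that blood cells also express, measured 9.50 and 8.66 in knockout and 10.54 and 9.63 in control cells. It was higher in replicate 1 of both genotypes.

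Avil, the actin-bundling advillin of tuft cell microvilli, measured 9.81 and 9.77 in knockout cells and 11.96 and 11.25 in controls. The difference was -1.81 ± 0.253 (SE, n = 2 arrays each; limma, adjusted p = 0.0616), with both knockout arrays below both controls. Bmx, a Tec-family tyrosine kinase gene, measured 7.16 and 7.29 against 9.06 and 8.43 in controls. Among tuft signalling genes, Gnb3 and Pik3cg fit the naming rule, and Gnat3, Gng13 and Trpm5 were chosen for their roles after their values were seen. The beta subunit Gnb3 measured 8.65 and 8.53 in knockout cells against 10.57 and 9.95 in controls. The taste-receptor alpha subunit Gnat3, gustducin, measured 8.82 and 8.64 against 10.49 and 9.71.

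The gamma subunit Gng13 measured 10.66 and 10.58 in knockout cells against 12.41 and 11.56 in controls. Trpm5, the calcium-gated cation channel at the end of the taste cascade, measured 8.13 and 8.00 against 10.33 and 9.20. The differences were -1.67 for Gnb3, -1.37 for Gnat3, -1.36 for Gng13 and -1.70 for Trpm5, each with both knockout arrays below both controls. All but Gnb3 were picked after their values were seen, so this does not speak for the whole cascade. Pik3cg, the gamma catalytic subunit of phosphoinositide kinase, had 7.33 and 7.30 in knockout cells and 8.81 and 8.37 in controls.

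Of the list's lipid mediator genes, Alox5ap fits the naming rule, and Ltc4s, Alox5 and Hpgds were picked after their values were seen. Alox5ap, the activating protein of arachidonate lipoxygenase in leukotriene synthesis, measured 9.14 and 9.14 in knockout cells and 11.26 and 10.56 in controls (difference -1.77; limma, adjusted p = 0.105). Its other probe was lower as well, by a difference of -1.59. Ltc4s, leukotriene C synthase, had 7.58 and 7.02 against 8.84 and 8.33 in controls. The lipoxygenase gene Alox5 had a narrower gap, at 7.92 and 8.63 against 9.39 and 8.78 in controls. The following effector genes were also picked after their values were seen. Il25, a cytokine gene whose product is a hallmark of tuft cells, measured 5.95 and 6.30 against 8.46 and 7.37 in controls. Chat, the acetylcholine-synthesising enzyme, measured 6.25 and 6.58 against 7.60 and 7.12.

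Not all of the tuft list differed. Krt18, Itpr2, Ffar3 and Spib had differences of -0.04, -0.13, 0.02 and -0.01, and their arrays overlapped between genotypes. Pou2f3, the transcription factor that defines the tuft lineage, did not pass the background filter, nor did Tas1r3, Rgs13, Cd300lf and Hmx2. Dclk1, the microtubule-associated kinase used as a tuft marker, measured 7.99 and 8.28 in knockout cells and 9.23 and 9.08 in controls, a difference of -1.02. In CD80high cells it was higher in knockout arrays, at 7.23 and 7.46 against 7.02 and 6.81 in controls. Its interaction had the smallest unadjusted p of all genes, 0.000446 in limma, with an adjusted p of 1.00.

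The octamer ATGCAAAT, the sequence bound by POU-domain factors, was searched on both strands of the promoter windows, 300 bases each. It was present in 3 of 29 tuft promoters that the RefSeq table holds (10.3%), against 474 of all 27025 (1.75%). It was also present in 2 of 32 cornified promoters (6.25%), and in 0 of 24 muscle and 0 of 28 cell cycle promoters. The 3 tuft promoters belong to Hpgds, a prostaglandin synthase gene, Kctd12, which encodes an auxiliary subunit of GABA-B receptors, and Sucnr1, the succinate receptor of tuft cells. They are shown because they are the tuft members that hold the motif, in capitals. Positions in GRCm38.p6 are chr6:65144681-65144980 (minus strand) for Hpgds, chr14:102982588-102982887 (minus strand) for Kctd12 and chr3:60081619-60081918 (plus strand) for Sucnr1.

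Hpgds: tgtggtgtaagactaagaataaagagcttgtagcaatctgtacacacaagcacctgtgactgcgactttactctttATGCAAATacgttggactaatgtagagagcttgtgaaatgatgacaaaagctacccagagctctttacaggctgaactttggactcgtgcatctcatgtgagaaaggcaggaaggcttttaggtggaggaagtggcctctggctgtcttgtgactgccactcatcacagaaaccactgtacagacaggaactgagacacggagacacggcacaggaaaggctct
Kctd12: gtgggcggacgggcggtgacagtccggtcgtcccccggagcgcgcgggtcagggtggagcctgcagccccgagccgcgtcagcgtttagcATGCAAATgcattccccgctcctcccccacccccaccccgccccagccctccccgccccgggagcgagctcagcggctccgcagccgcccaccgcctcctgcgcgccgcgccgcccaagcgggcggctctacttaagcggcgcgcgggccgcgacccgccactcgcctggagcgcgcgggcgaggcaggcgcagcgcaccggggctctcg
Sucnr1: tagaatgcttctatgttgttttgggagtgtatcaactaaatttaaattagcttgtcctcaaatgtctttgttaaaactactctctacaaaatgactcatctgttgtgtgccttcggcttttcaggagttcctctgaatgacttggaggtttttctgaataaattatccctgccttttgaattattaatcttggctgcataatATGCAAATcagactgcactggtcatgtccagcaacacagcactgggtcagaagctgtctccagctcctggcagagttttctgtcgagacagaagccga

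Of these 3 genes Hpgds had the largest difference. It measured 5.55 and 5.94 in knockout cells and 7.06 and 6.63 in controls, a difference of -1.10 with no overlap (limma, unadjusted p = 0.000878). Kctd12 measured 8.69 and 8.67 against 8.95 and 9.15 in controls. Sucnr1 was not above background on either knockout array and measured 5.41 and 5.50 in controls. Members that hold the motif thus had both large and small differences.

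Skeletal muscle genes were lower in knockout cells as a second list. Of 37 listed genes 28 were tested and 22 had a lower mean, beside 48.3% of all genes, with a median difference of -0.42. The arrays did not overlap with a lower level for 16 of the 28, and 12 had an unadjusted p under 0.05 with a lower level, beside 15.8% and 4.41% of all genes. The list's mean was 7.34 and 7.36 in knockout and 7.69 and 7.91 in control cells. The median was -0.41 in number 1 and -0.58 in number 2. It was -0.23 without control replicate 2 and -0.65 without control replicate 1.

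Tnnc2, the fast troponin C gene, measured 7.73 and 6.88 in knockout cells and 9.11 and 8.68 in controls, a difference of -1.59 ± 0.279 (SE; limma, adjusted p = 0.130). Acta1, skeletal alpha-actin, measured 10.66 and 10.73 against 11.60 and 11.54. Mylpf, a fast myosin light chain gene with 2 probes of the same direction, measured 9.51 and 9.33 against 10.44 and 10.20. Knockout arrays lay below controls for all of these. Myh1, a fast myosin heavy chain gene, had 5.41 and 5.11 in knockout cells and 6.39 and 6.57 in controls.

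Other muscle genes, picked by role after their values were seen, included Myog, the myogenic transcription factor myogenin, at 6.93 and 6.81 in knockout and 7.54 and 7.63 in control cells. The acetylcholine receptor alpha subunit Chrna1, a muscle autoantigen, measured 5.93 and 6.10 against 6.60 and 6.92 in controls. Muscle creatine kinase, Ckm, measured 6.15 and 6.60 against 7.39 and 7.18. Des and Actn3 went the other way or stayed close, with differences of 0.08 and -0.14 and overlapping arrays. The E-box CANCTG was present in 17 of 24 muscle promoters (70.8%), against 51.1% of all promoters, counting both strands. It was also in 65.5% of tuft and 62.5% of cornified promoters.

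The cornified keratinocyte list was lower too, but its shift depended on single arrays. Of 34 tested genes 29 had a lower mean, beside 48.3% of all genes, with a median of -0.49. The arrays did not overlap with a lower level for 15, beside 15.8% of all genes. An unadjusted p under 0.05 with a lower level was found for 12, beside 4.41%. The list's mean was 6.17 and 6.72 in knockout cells and 6.77 and 7.19 in controls, so knockout replicate 2 and control replicate 1 were almost level. The median was -0.55 in number 1 and -0.30 in number 2, and -0.09 when knockout replicate 1 was left out.

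Sprr2d, a small proline-rich protein gene of the cornified envelope, measured 6.34 and 7.31 in knockout cells and 7.90 and 8.17 in controls. Ivl, involucrin, measured 5.74 and 6.26 against 6.84 and 6.91, and Dmkn, dermokine, measured 9.31 and 9.76 against 10.27 and 10.54. These 3 did not overlap between genotypes on the probes used. The second probe of Ivl differed by -0.43, and the further probes of Dmkn by -0.73 and 0.05. Lce1b, a late cornified envelope gene, measured 4.73 and 4.36 against 5.11 and 7.08, and its difference came mainly from control replicate 2. In contrast Flg and Lor, filaggrin and loricrin, overlapped, with Flg at 6.22 and 8.62 in knockout and 7.64 and 8.58 in control cells.

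**Figure D2:**
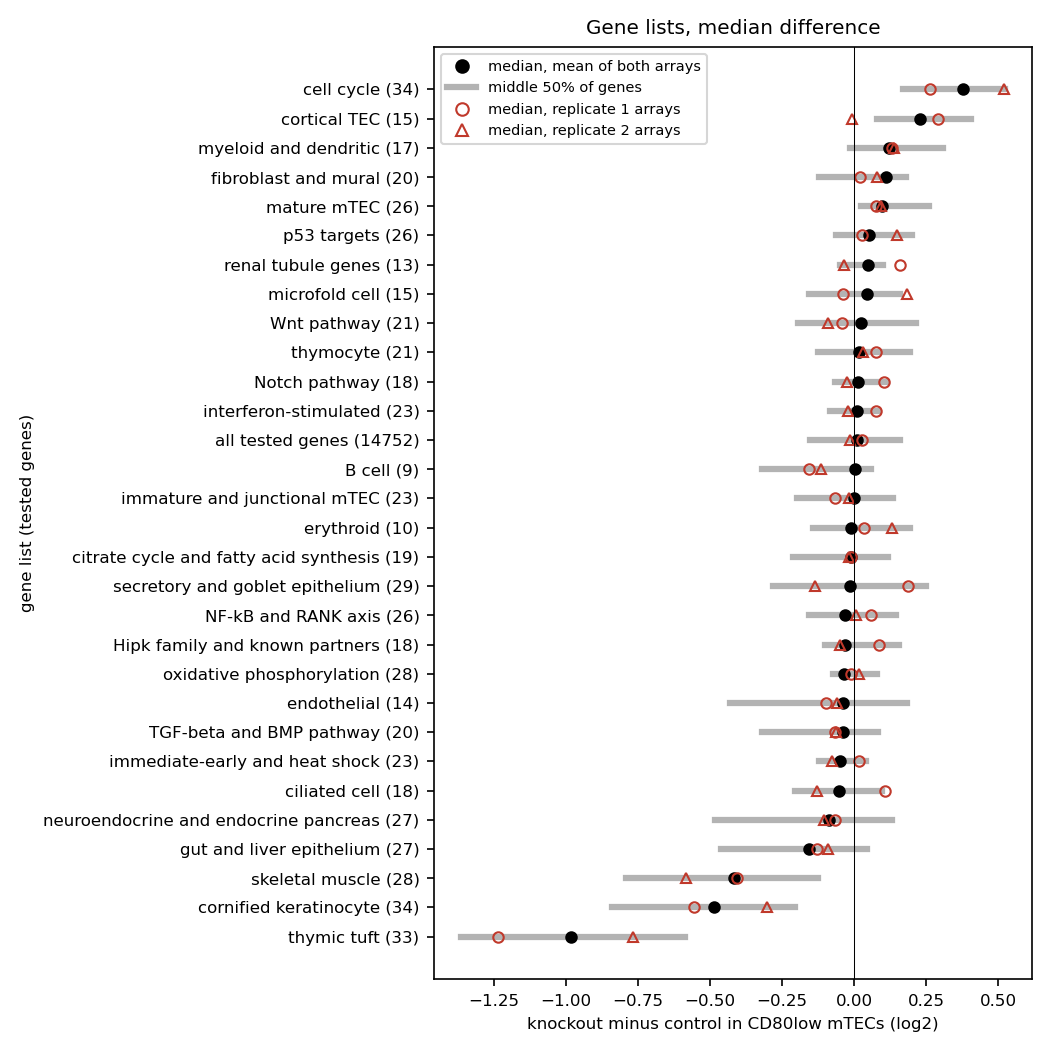
Median difference, knockout minus control, of each gene list in CD80low mTECs on the log2 scale. Black points use both arrays, bars span the middle 50% of genes, and open red circles and triangles give the medians within replicate numbers 1 and 2. The tuft, muscle and cornified lists are lowest and the cell cycle list is highest, on the same side of 0 in both numbers. The lists were chosen with earlier results of these data known.

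Cell cycle genes were higher in knockout CD80low cells as a list, by small amounts. Of 40 listed genes 34 were tested and 31 had a higher mean, as did 51.7% of all genes, with a median difference of 0.38. The arrays did not overlap with a higher level for 23, beside 15.1% of all genes, and 7 had an unadjusted p under 0.05 with a higher level, beside 2.35%. No member passed the adjusted threshold. The list's mean was 7.58 and 7.79 in knockout and 7.33 and 7.34 in control cells. The median was 0.26 in number 1 and 0.52 in number 2. Thymocyte genes, which differed by number, had a median difference of 0.02 between genotypes, and the part of thymocytes or other dividing cells in these levels was not tested.

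Cdk1, the mitotic cyclin-dependent kinase, measured 8.07 and 8.33 in knockout cells and 7.37 and 7.56 in controls (difference 0.74 ± 0.219 SE; limma, adjusted p = 0.415). Bub1b, a spindle checkpoint kinase gene, measured 8.31 and 8.39 against 7.70 and 7.75. Plk1, polo-like kinase, measured 7.61 and 7.94 against 6.82 and 7.36. All were higher on both knockout arrays than on either control. Rrm2, the ribonucleotide reductase subunit that supplies deoxynucleotides, had 6.20 and 6.40 in knockout cells and 5.06 and 5.79 in controls. The second probes of Bub1b and Rrm2 differed by 0.30 and 0.22.

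Spc25, a kinetochore gene that was not on the list, was named among the genes with the widest gap. It measured 7.11 and 7.36 in knockout cells and 6.08 and 6.16 in controls, a difference of 1.11 ± 0.238 (SE; limma, adjusted p = 0.194), and its second probe was higher by 1.30. Iqgap3, a scaffold gene of dividing cells, measured 7.13 and 7.09 against 6.18 and 6.41, but its second probe differed by only 0.10. The proliferation marker Mki67 measured 8.26 and 8.39 in knockout and 7.82 and 8.02 in control cells. Mcm7 and Stmn1 were lower in mean, by differences of -0.25 and -0.37, although Mcm7 differed by 0.07 with its probes averaged, and Pcna was level at -0.01.

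Cell cycle promoters were searched on both strands for the CCAAT box, CCAAT, and for TTTGAA, a form of the cell cycle genes homology region (CHR). Of 28 such promoters 21 held CCAAT (75%), against 37.9% of all 27025, and 13 held TTTGAA (46.4%), against 18.1%. Both motifs stood together in 13 of the 28, against 7.12% of all promoters. The windows of Cdk1, Plk1 and Spc25 are shown as examples picked by hand among genes that were higher and hold both motifs. Spc25 is not on the list. The motifs are in capitals and do not overlap there. Whether holding them goes with the size of the difference was not tested. Capitals reading ATTGG are CCAAT on the other strand. Their positions in GRCm38.p6 are chr10:69352863-69353162 (minus strand) for Cdk1, chr7:122159185-122159484 (plus strand) for Plk1 and chr2:69206164-69206463 (minus strand) for Spc25.

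Cdk1: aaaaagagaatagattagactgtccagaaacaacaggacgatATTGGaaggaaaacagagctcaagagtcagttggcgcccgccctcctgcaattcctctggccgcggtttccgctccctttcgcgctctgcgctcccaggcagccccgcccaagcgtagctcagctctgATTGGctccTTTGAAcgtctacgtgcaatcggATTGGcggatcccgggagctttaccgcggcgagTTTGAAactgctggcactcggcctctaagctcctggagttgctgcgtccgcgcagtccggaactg
Plk1: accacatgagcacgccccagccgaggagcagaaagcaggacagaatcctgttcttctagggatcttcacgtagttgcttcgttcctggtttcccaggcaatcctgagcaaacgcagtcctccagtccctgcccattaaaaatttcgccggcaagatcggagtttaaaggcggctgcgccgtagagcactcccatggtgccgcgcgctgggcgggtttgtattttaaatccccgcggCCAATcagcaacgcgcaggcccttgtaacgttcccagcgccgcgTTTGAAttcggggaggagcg
Spc25: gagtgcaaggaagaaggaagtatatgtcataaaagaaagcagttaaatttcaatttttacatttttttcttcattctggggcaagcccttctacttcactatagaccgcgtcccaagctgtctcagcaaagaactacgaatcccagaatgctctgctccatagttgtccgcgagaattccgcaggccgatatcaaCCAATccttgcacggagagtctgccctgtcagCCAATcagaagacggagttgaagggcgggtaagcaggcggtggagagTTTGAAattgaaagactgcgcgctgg

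**Figure D3:**
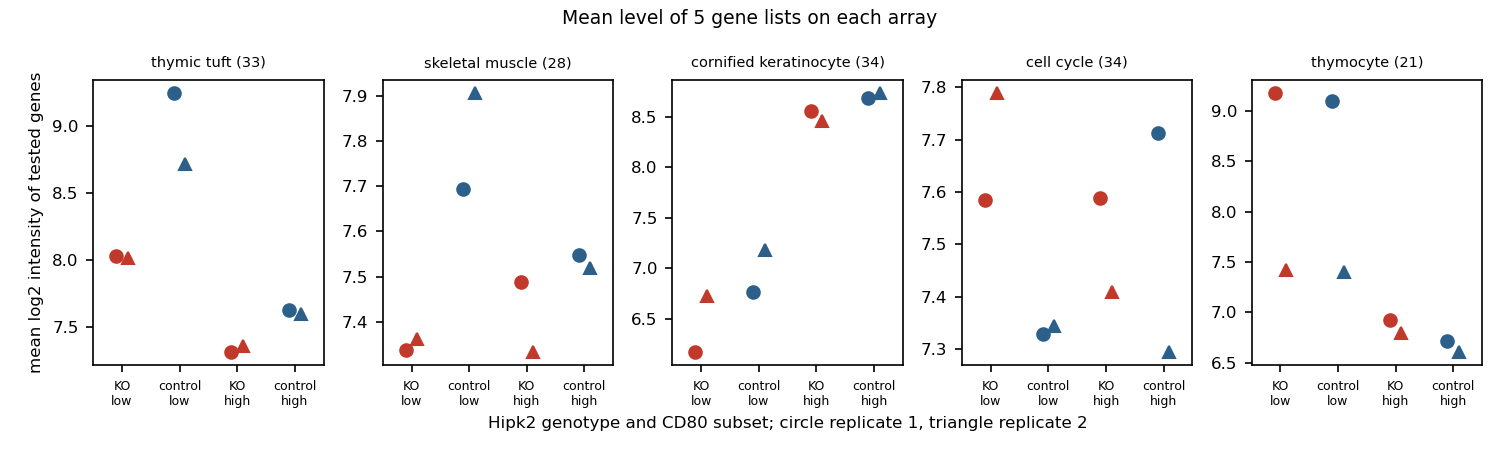
Mean log2 intensity of the tested genes of 5 lists on each of the 8 arrays, knockout in red left of control in blue within each subset, circles for replicate 1 and triangles for replicate 2; each panel has its own axis, which does not start at 0. Tuft and muscle means are lower on both knockout CD80low arrays than on either control, cell cycle means are higher, and the thymocyte panel separates the replicate numbers of CD80low cells.

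Genes with the widest gap upwards, besides Slc13a2 and Spc25, fell into no single fixed list. They were named for that gap, so their lack of overlap is not a further result. Lyz2, a macrophage lysozyme gene, measured 9.76 and 9.48 in knockout cells and 8.75 and 8.35 in controls. Its paralogue Lyz1 measured 11.89 and 11.75 against 11.26 and 11.17. These genes are near-identical, so their probes may share signal, and the second probe of Lyz2 differed by 0.39. The further probes of Lyz1 differed by 0.46 and 0.005. The myeloid list as a whole had a median of 0.12, with 2 of 17 genes at an unadjusted p under 0.05 with a higher level, beside 2.35% of all genes, both of them lysozymes.

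Cobll1, a gene related to the actin regulator cordon-bleu, measured 9.14 and 9.56 in knockout cells and 8.12 and 8.48 in controls. Its second probe was higher by 1.03, and in CD80high cells it differed by 0.71. Mgmt, the repair enzyme for alkylated guanine, measured 8.02 and 7.80 against 7.04 and 6.91. Both genes were higher on each knockout array, although the second probe of Mgmt differed by only 0.30. Bcl2a1d, an anti-apoptotic Bcl2 family gene with close paralogues, had 9.42 and 9.72 in knockout cells and 8.71 and 8.73 in controls. Cav2, a caveolin gene, had 6.25 and 6.43 in knockout cells and 5.31 and 5.36 in controls.

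Several further genes with higher levels stood near the floor. Atp8b2, Dcaf8, Pde3a, Nkx2-9, Pp2d1 and 9030611K07Rik were not above background on either control array and were at least 1.39-, 1.26-, 1.59-, 1.35-, 1.11- and 1.32-fold higher in knockout cells. Atp7b, a copper transporter gene, measured 5.45 and 5.54 in knockout cells and 4.54 and 4.52 in controls. Its direction turned where another of its probes was used, as given in the closing section. In all, 211 of the 651 genes that were lower at an unadjusted p under 0.05 were at background on both knockout arrays, and 113 of the 346 that were higher were at background on both control arrays. These counts include genes at background in both genotypes. The shares at hand over all genes leave such genes out, at 5.04% for knockout only and 3.77% for control only. They are a narrower measure and cannot be set beside the counts.

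Lists of endocrine, gut and secretory epithelium held genes with higher and genes with lower levels. Sst, the somatostatin gene, measured 6.41 and 7.27 in knockout cells and 9.52 and 8.09 in controls, a difference of -3.11 in number 1 and -0.82 in number 2. Gcg, glucagon, was higher, at 6.95 and 7.59 against 5.78 and 6.40 in controls. Of 27 tested endocrine genes 2 were higher and 7 lower at an unadjusted p under 0.05, with a list median of -0.09, beside 2.35% higher and 4.41% lower over all genes.

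Gp2, a glycoprotein of microfold cells, measured 11.15 and 11.05 in knockout cells and 12.19 and 11.98 in controls. It was the single gene of its list at an unadjusted p under 0.05, and the list of 15 tested genes had a median of 0.04. Cdhr5, a microvillar cadherin gene, measured 8.46 and 8.68 against 10.15 and 9.49. Cldn3, a tight junction claudin gene, measured 8.33 and 8.43 against 9.55 and 9.13. All 3 were lower on both knockout arrays. Elf3, an epithelial Ets factor gene, had 8.71 and 8.79 in knockout cells and 10.04 and 9.37 in controls. Its further probes differed by -0.91 and -0.33. Scgb1a1, a secretoglobin of airway club cells, had 5.96 and 6.15 against 7.17 and 6.85.

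Pathways that Hipk2 is known to act in had list medians near 0. The 18 tested genes of the Hipk family and its partners had a median of -0.03 and none at an unadjusted p under 0.05. The 26 tested p53 targets had a median of 0.05, with 3 higher and 1 lower at that threshold, beside 2.35% and 4.41% of all genes. Arrays did not overlap for 8 with a higher and 3 with a lower level, beside 15.1% and 15.8% of all genes. In CD80high cells their median was 0.17, with 19 of the 26 higher in mean, beside 49.7% of all genes. Ccng1, cyclin G, measured 10.30 and 10.46 in knockout cells and 9.52 and 9.96 in controls, and all 3 of its probes were higher. Plk2, a polo-like kinase gene of the stress response, measured 8.23 and 8.55 against 9.24 and 9.09. Medians were 0.02 for Wnt, -0.04 for TGF-beta and BMP, 0.01 for Notch and -0.03 for the NF-kB and RANK axis.

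The lists of TEC identity had medians from 0.00 to 0.23. Mature mTEC genes had a median of 0.09 over 26 tested genes and immature and junctional mTEC genes 0.00 over 23. A higher mean was found for 20 of the 26 and 11 of the 23, beside 51.7% of all genes. Within the immature list Krt15, a progenitor keratin, measured 7.43 and 8.08 in knockout and 7.11 and 7.24 in control cells. Cortical TEC genes had a median of 0.23 over 15, being 0.29 in number 1 and -0.01 in number 2, and 12 of the 15 had a higher mean. In the mature and cortical lists 0 genes had an unadjusted p under 0.05 in limma. Interferon-stimulated genes had 0.01, immediate-early and heat shock genes -0.05, oxidative phosphorylation genes -0.04, and citrate cycle and fatty acid synthesis genes -0.01. Egr3, an immediate-early transcription factor gene, measured 10.03 and 10.08 in knockout cells and 10.97 and 10.83 in controls. Its second probe, which was dimmer, differed by -0.12.

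Markers of other cells the sort could hold had medians of 0.02 for thymocytes, -0.01 for erythroid cells, 0.12 for myeloid and dendritic cells, 0.00 for B cells, 0.11 for fibroblast and mural cells and -0.04 for endothelial cells. Remaining epithelial lists had medians of -0.05 for ciliated cells, -0.16 for gut and liver epithelium and -0.02 for secretory and goblet epithelium. Over the 25 lists other than tuft, muscle, cornified and cell cycle, medians lay between -0.16 and 0.23.

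**Figure D4:**
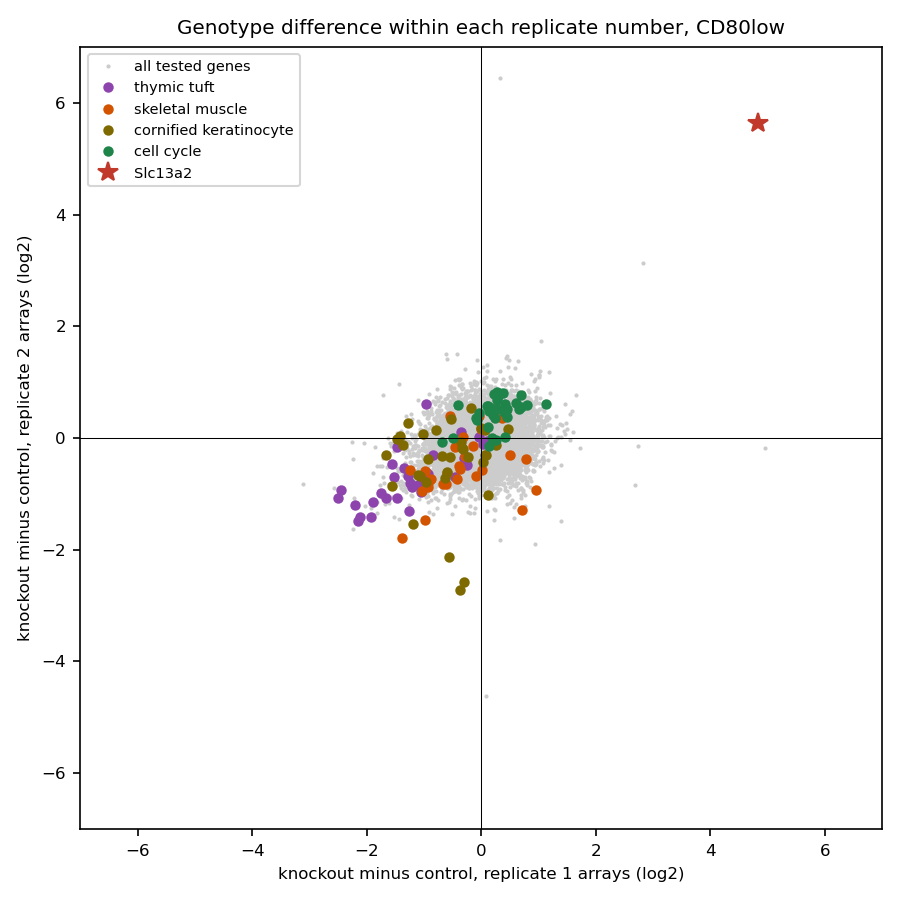
Knockout minus control difference in CD80low mTECs within replicate number 1 (horizontal) and number 2 (vertical), on the log2 scale, for all tested genes in grey with 4 lists and Slc13a2 in colour. Slc13a2 stands apart at 4.83 and 5.65, tuft genes lie mostly towards the lower left and cell cycle genes in the upper right; a few grey points are far out along 1 axis only.

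Some of the largest differences came from 1 array and are given for that reason, chosen after their values were seen. Tg, thyroglobulin of the thyroid, measured 5.25 and 11.66 in knockout cells and 4.93 and 5.21 in controls. Mucl2, a mucin-like gene of exocrine glands, measured 9.74 and 4.98 against 4.77 and 5.15. Mup5, a major urinary protein gene with near-identical paralogues, measured 8.85 and 5.32 against 6.10 and 5.46. In each case a single knockout array was high and the other lay at control level.

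Immunoglobulin segments varied in the same way. Igl-V1 measured 13.38 and 6.39 in knockout cells and 13.29 and 11.01 in controls. Igkv9-124 was higher in knockout cells in both numbers, at 10.26 and 8.09 against 7.44 and 4.96, but its replicate 1 was above replicate 2 in both genotypes by more than 2 log2 units. Among the 6 genes chosen for opposite signs, Igkv1-110 measured 12.37 and 7.03 in knockout and 10.98 and 8.51 in control cells. The other 5 were Tmc5, Cplx4, Lce1d, Myh2 and Klk1b11, with differences in number 1 of 1.18, -1.44, 0.94, 0.95 and 0.85 and in number 2 of -1.21, 0.97, -1.90, -0.92 and -0.88.

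The 651 genes that were lower in CD80low cells tended to be lower in CD80high cells, which were read on other arrays. Nothing states whether the 2 subsets came from the same animals. The fit that chose these genes shares each gene's spread with the CD80high arrays, and genes are not independent of each other. A lower mean in knockout CD80high cells was found for 452 of them (69.4%), against 50.3% of all genes. Of the 346 that were higher, 174 (50.3%) had a higher mean in CD80high cells, against 49.7% of all genes. In CD80high cells 235 genes (1.59%) had an unadjusted p under 0.05, and Slc13a2 was again the single gene past the adjusted threshold.

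The tuft list had a median of -0.30 in CD80high cells, with 26 of 33 genes lower, and 32 of 33 were more negative in CD80low than in CD80high cells. The muscle and cornified lists had CD80high medians of -0.15 and -0.22. The cell cycle list had -0.03, with 19 of 34 genes lower there. An unadjusted interaction p under 0.05 was found for 12 tuft, 6 muscle, 3 cornified and 1 cell cycle gene, beside 485 of all genes (3.29%). No interaction passed the adjusted threshold in limma.

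**Figure D5:**
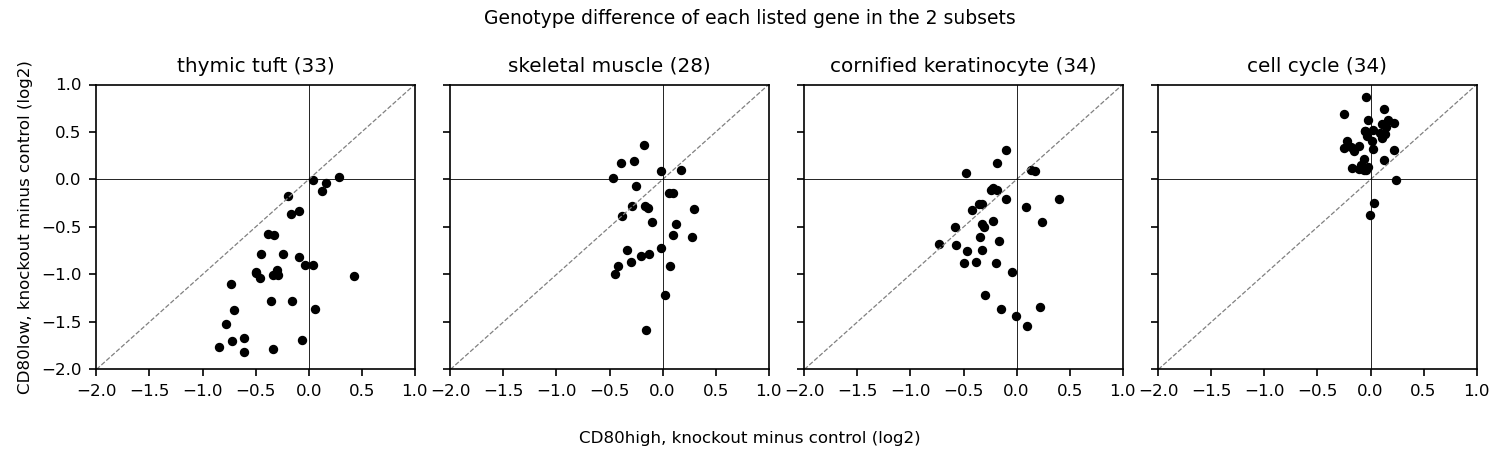
Knockout minus control difference of each tested gene in CD80low (vertical) against CD80high mTECs (horizontal) on the log2 scale, for 4 lists, with a dashed line of equal difference. Tuft genes lie below the line with 1 exception, and cell cycle genes spread upwards around a CD80high difference near 0.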

How the data were processed

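Total RNA of sorted mTECs was amplified from 200 ng, labelled with biotin and hybridised to Illumina bead arrays, per the labels' protocols. The authors deposited linear intensity values that had been made comparable across arrays by a method not given in the sources used here. A second table without normalisation was left out, because no label ties its 8 signal columns to samples.

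The deposited intensities were background-corrected with normexp (offset 16), quantile-normalised over the 8 arrays, which is a second normalisation, and log2-transformed, using limma 3.58.1 in R 4.3.3. Tested probes exceeded the mode of the array's background by over 1.645 SD on each array of 1 group or more. Of the 46089 probes, 35667 carried 1 symbol, 0 several and 10422 none; the brightest tested probe stood for a gene. One limma fit held 4 group means, with Benjamini-Hochberg adjustment over 14752 genes and a threshold of 0.05. On data simulated for the CD80low comparison over these 14752 genes it called 55 of 100 genes shifted by 1 log2 unit, 100 of 100 shifted by 2, and 12 unshifted genes. The simulated noise was independent between arrays and had the same spread in all groups. In the real data replicates varied more in CD80low than in CD80high cells, so these counts are not detection rates for the real comparison. A difference against a group at background is given as a lower bound, the bright group's mean over the higher of the dim values and the lowest level above background. Arrays have no read depth, and their number limits the precision.

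Groups, members and the 29 gene lists were chosen with earlier results of these data known. Text genes were the Hipk genes, the 20 smallest p, the 15 higher and 15 lower with the widest gap at an unadjusted p under 0.05, 6 with opposite signs in the 2 replicate numbers, and up to 4 per list by p; every other gene named was picked after its values were seen. Nothing states that same-numbered samples share animals, so the fit has no replicate block. Alternatives covered correction, normalisation, filter, arrays fitted, variance prior, probe summary, replicate block and each array left out.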

Additional observations from a re-analysis of the deposited data

How the results depend on the processing

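Slc13a2 passed the adjusted threshold in all 23 settings (difference 4.19 to 5.62). The count of called genes, 1 in the reported fit, was 2 on the deposited scale, 3 with an offset of 50 and 16 with a trended robust prior. Of 107 genes named in the text, 2264 of 2341 gene and setting pairs kept their direction, and 26 genes had a direction that turned, most of them named as near 0, as overlapping or for opposite signs in the 2 numbers. With single arrays left out, the difference ran from -0.30 to 0.97 for Atp7b, -0.36 to 0.13 for Hipk2, -0.73 to 2.55 for Mup2, -0.47 to 3.05 for Mup5 and -5.75 to 1.23 for Igl-V1. For the 6 genes with opposite signs it ran from -2.71 to 2.62 for Igkv1-110, -0.67 to 0.64 for Tmc5, -1.15 to 0.67 for Cplx4, -1.50 to 0.53 for Lce1d, -0.73 to 0.76 for Myh2 and -0.52 to 0.49 for Klk1b11. For genes near 0 or with overlapping arrays it ran from -0.17 to 0.093 for Krt18, -0.35 to 0.097 for Itpr2, -0.064 to 0.11 for Ffar3, -0.27 to 0.25 for Spib, -0.52 to 0.23 for Actn3, -0.44 to 0.41 for Pcna, -1.87 to 0.51 for Flg, -1.14 to 0.92 for Lor, -0.27 to 0.84 for Hipk1, -0.079 to 0.34 for Slc17a3, -0.26 to 0.43 for Des, -0.066 to 0.42 for Hipk3, -0.13 to 0.55 for Slc12a1 and -0.60 to 0.10 for Mcm7. Leaving out both CD80low arrays of a number was chosen after seeing the data. Directions turned without number 1 for Atp7b at -0.30, Hipk3 at -0.061, Slc12a1 at -0.24, Cplx4 at 1.00, Myh2 at -0.94, Mucl2 at -0.18, Mup2 at -0.88, Mup5 at -0.15, Itpr2 at 0.10, Ffar3 at -0.055, Spib at 0.018, Actn3 at 0.022, Mcm7 at 0.0044 and Flg at 0.040, and without number 2 for Lce1d at 0.97, Hipk2 at 0.16, Klk1b11 at 0.85, Tmc5 at 1.18, Igkv1-110 at 1.39, Igl-V1 at 0.096, Krt18 at 0.027, Des at -0.00092, Pcna at 0.13 and Lor at 0.083. They also turned on the deposited scale for Igkv1-110 at 0.097 and Spib at 0.0017, with an offset of 50 for Myh2 at -0.036 and Igkv1-110 at 0.047, without background correction for Klk1b11 at 0.0018, Myh2 at -0.016, Tmc5 at 0.0026 and Igkv1-110 at 0.12, without quantile normalisation for Spib at 0.00076, without a filter for Atp7b at -0.18, and with the mean of a gene's probes for Klk1b11 at 0.23, Igkv1-110 at 0.27, Spib at 0.055, Actn3 at 0.029 and Mcm7 at 0.072.

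With the replicate block shared by both subsets 14 genes were called, and with the block within each subset 50, while 758 genes were higher and 1098 lower at an unadjusted p under 0.05 and 1 interaction was called. The shared block called the tuft genes Avil, Alox5ap and Gnb3 and the muscle gene Tnnc2. The block within each subset called 10 tuft genes, these 3 with Bmx, Gnat3, Gng13, Ltc4s, Pik3cg, Plcb2 and Trpm5, and the muscle genes Tnnc2 and Myl1. Deviations of replicate 1 from 2 correlated across genes at 0.503 between the CD80low genotypes and at 0.468 between the CD80high genotypes. With only 2 numbers and no label for what they share, this is a hint and not a design.

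Leaving out each array in turn gave 1 to 24 called genes, 0 to 4 called interactions, 260 to 727 genes higher and 536 to 993 lower. Medians ran from -1.20 to -0.70 for tuft, -0.65 to -0.23 for muscle, -0.75 to -0.088 for cornified and 0.31 to 0.47 for cell cycle genes. Without both number 1 arrays 6 genes and 3 interactions were called, 543 genes were higher, and the muscle and cell cycle medians were -0.58 and 0.53. Without both number 2 arrays 59 genes and 10 interactions were called, 870 genes were higher and 1091 lower, and the cell cycle median was 0.27. The filter was reset in each of these, so more genes were tested. In these fits a genotype left with 1 array is assumed to vary like the other groups. The muscle median was -0.28 on the deposited scale, -0.30 with an offset of 50, -0.28 without background correction and -0.28 without a filter. The cell cycle median was 0.27 on the deposited scale and 0.26 without background correction. No filter gave 550 genes higher, and the 4 CD80low arrays alone gave 214. Why these values moved was not tested beyond the change each setting makes. Genes near background limit what a fold can show, and n = 2 arrays a side limits every p.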

Other observations

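Probes without a gene name were left out of the report. Of 3308 such probes tested in CD80low cells, 0 passed the adjusted threshold in limma and 242 had an unadjusted p under 0.05. Genes with more than 1 tested probe numbered 4370. Their further probes shared the sign of the reported probe in 58.5% of cases over all genes, and in 240 of 317 cases (75.7%) for genes at an unadjusted p under 0.05.

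Spread between replicates was wider in CD80low than in CD80high cells of either genotype. The standard deviation over genes of replicate 1 minus replicate 2 was 0.462 in knockout and 0.474 in control CD80low cells, and 0.353 in knockout and 0.299 in control CD80high cells. Across genes, the knockout minus control differences of the 2 numbers in CD80low cells correlated at 0.219, over 14752 genes that share the same 4 arrays and are not independent replicates.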
